A study of Homo sapiens with 16 samples.

Results

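The genes described here are the 356 expressed genes of human chromosome 10 in RNA-seq libraries of cells labelled Kasumi-1 and SKNO-1, taken in order from the tip of the short arm (10p) to the end of the long arm (10q). Kasumi-1 and SKNO-1 are established human acute myeloid leukaemia lines that carry t(8;21), the translocation that joins RUNX1 to *RUNX1T1* (also called ETO) and gives the fusion RUNX1/ETO. A gene was taken when it lay on chromosome 10 and had a mean of at least 8 CPM (read counts scaled to a common library total) over the 12 in vitro libraries. Genes of some families, known by the start of their names, and some single genes were left out by name. This gave 356 of the 2331 chromosome 10 genes in the tables, which list 60357 genes in all. Of 365 that reached the mean, 9 were left out by name. The members comprise 91 genes on 10p and 265 on 10q, and 342 of them are protein-coding. *HECTD2* (8.12 CPM) and *HPS6* (8.17 CPM) lay just inside the limit, and *AC063965.1* (7.92 CPM) just outside it.

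In the study, lipid nanoparticles (LNPs) carried a chemically modified siRNA against the RUNX1/ETO fusion site (siRE-mod) or a modified mismatch control (siMM-mod) into the cells. All groups received 2 µg/ml of LNP for 24 h and were harvested on day 3. There were 3 libraries labelled Kasumi-1 with LNP/siMM-mod, 3 labelled Kasumi-1 with LNP/siRE-mod, 3 labelled SKNO-1 with LNP/siMM-mod and 3 labelled SKNO-1 with LNP/siRE-mod. The labels give the genotype as WT for the control groups and as RUNX1/ETO knockdown for the others, and they do not say whether replicates came from separate cultures, so a p-value here measures the spread between these samples only. Each line is a single established line, and no DNA was measured, so copy number of chromosome 10 can only be inferred from transcripts.

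The libraries were set apart by a measured value and not by their labels. The 6 libraries with *CD34* above 50 CPM (120.8 to 397.7 CPM, the CD34-high set) were compared with the 6 below (0.117 to 0.695 CPM, the CD34-low set). The CD34-high set holds Kasumi-1 siMM-mod replicates 1 and 2, all 3 SKNO-1 siMM-mod replicates and SKNO-1 siRE-mod replicate 1. The CD34-low set holds Kasumi-1 siMM-mod replicate 3, all 3 Kasumi-1 siRE-mod replicates and SKNO-1 siRE-mod replicates 2 and 3. The split thus runs across both line labels and both siRNA labels. *CD34*, *IL5RA* and *VIM*, among others, part the 12 libraries in the same way, and whether some libraries carry the wrong label was not tested, so a difference between lines and one within a labelled group cannot be told apart in what follows. Because the sets were selected on their expression, all values that compare them are given as a description, with no test and no p-value.

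The targeted transcript did not follow the labels. *RUNX1T1* had 280.6, 79.2 and 150.4 CPM in the libraries labelled Kasumi-1 siMM-mod replicates 1 to 3 and 52.7, 173.6 and 41.3 CPM in those labelled siRE-mod. It had 308.8, 253.9 and 134.0 CPM in the libraries labelled SKNO-1 siMM-mod and 127.5, 164.9 and 41.9 CPM in those labelled siRE-mod. The 2 siRNA labels overlapped in both lines, so no direction below is read as an effect of the knockdown. *IL5RA*, the interleukin 5 receptor alpha chain, ran opposite to *CD34*, with 0 to 0.184 CPM in the CD34-high set and 36.4 to 70.4 CPM in the CD34-low set. The myeloid markers *MPO*, *CD33*, *KIT*, *PTPRC*, *SPI1* and *CSF3R* were detected in all 12 libraries, with *MPO* at 9501 to 19319 CPM in the CD34-high and 1846 to 5792 CPM in the CD34-low set. T cell, B cell, erythroid and fibroblast markers summed to at most 2.95 CPM per list. Of 3 epithelial markers, *EPCAM* had 80.0 to 88.9 CPM in the CD34-high set and at most 0.0101 CPM in the CD34-low set, while *KRT8* and *CDH1* stayed at or near 0, and the part of this in the results was not tested. Depth was 60559466 to 91965969 counts in the CD34-high and 86354233 to 147990959 in the CD34-low set, and the lowest values below rest on few counts.

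Cells usually carry a pair of each autosome, and the amount of transcript from most genes follows the number of gene copies when nothing compensates for it. A gained or lost chromosome or arm therefore moves many neighbouring genes by a like, modest ratio, while regulation by transcription factors moves single genes by widely different amounts. Gains and losses of chromosomes are common in leukaemic cell lines. A change of copy number within an arm would show as a step, a point along the chromosome where the ratio of its genes changes.

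The promoters of the members that lay furthest apart in each direction are shown to give the sequence context of the extremes. The RefSeq table (GRCh38.p14) held the 250 bases before the transcript start for 299 members, which do not include *ALOX5* and *ST8SIA6*. Capitals mark the GC box GGGCGG and the RUNX core TGTGGT, on either strand, and overlapping matches are merged in the print. *SFMBT2* (chr10:7411491-7411740, minus strand) and *PRXL2A* (chr10:80408301-80408550, plus strand) were higher in the CD34-high set, and *VIM* (chr10:17227991-17228240, plus strand) and *IL2RA* (chr10:6062368-6062617, minus strand) lower.
SFMBT2: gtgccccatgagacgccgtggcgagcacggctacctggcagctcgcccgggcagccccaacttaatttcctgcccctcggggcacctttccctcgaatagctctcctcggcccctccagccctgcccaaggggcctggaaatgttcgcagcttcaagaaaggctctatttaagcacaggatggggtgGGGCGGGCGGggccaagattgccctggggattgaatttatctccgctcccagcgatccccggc
PRXL2A: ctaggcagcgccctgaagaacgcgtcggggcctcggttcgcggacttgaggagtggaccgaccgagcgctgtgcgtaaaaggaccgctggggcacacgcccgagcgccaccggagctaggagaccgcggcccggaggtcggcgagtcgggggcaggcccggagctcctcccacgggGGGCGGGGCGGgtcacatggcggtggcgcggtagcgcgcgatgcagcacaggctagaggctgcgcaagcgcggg
VIM: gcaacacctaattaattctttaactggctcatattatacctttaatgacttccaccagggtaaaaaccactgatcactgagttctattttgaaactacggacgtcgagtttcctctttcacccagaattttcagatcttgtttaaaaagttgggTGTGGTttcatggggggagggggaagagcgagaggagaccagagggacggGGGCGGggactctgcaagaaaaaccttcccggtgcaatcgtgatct
IL2RA: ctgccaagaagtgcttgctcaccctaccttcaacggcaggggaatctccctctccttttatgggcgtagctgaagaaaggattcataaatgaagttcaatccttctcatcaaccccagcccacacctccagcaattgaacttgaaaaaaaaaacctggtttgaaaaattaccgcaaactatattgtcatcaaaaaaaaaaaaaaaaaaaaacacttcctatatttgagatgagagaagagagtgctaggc

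*SFMBT2* and *PRXL2A* each held 2 GC boxes and no RUNX core, with 63.6% and 73.6% of bases G or C. The *VIM* promoter held 1 RUNX core and 1 GC box (46% G or C), and that of *IL2RA* neither (40% G or C). The printed pairs do not stand for their directions. Among other members far lower in the CD34-high set, *OPTN*, *TSPAN15* and *SPAG6* held 4, 2 and 1 GC boxes (63.6%, 67.6% and 72.8% G or C). *CAMK1D* held 0 (52.4%). The other members far higher each held at least 1, with 59.2% (*ZEB1*) to 82.8% (*PDLIM1*) G or C. Over all 27326 promoters in the table, 42.3% held a GC box and 10.9% a RUNX core. Among those of the members, 191 of 299 (63.9%) held a GC box and 27 (9.03%) a RUNX core. The members were taken for their expression and the other promoters were not, so the 2 sets of shares are not like for like. These matches describe letters in a window and say nothing of binding. The window of *PRXL2A* lies inside the interval that the count tables give for the gene (chr10:80407829-80437115), which starts upstream of the RefSeq start. The windows of *ARHGAP21*, *OPTN* and *CAMK1D* also lie inside the intervals of their genes. That of *CAMK1D* (chr10:12388732-12388981) lies far inside (chr10:12349482-12835545), so its letters do not describe the start of the counted gene.

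Most members were higher in the CD34-high set, by amounts that varied between them. For each gene, the difference is the median log2(CPM + 1) of the CD34-high set minus that of the CD34-low set, and since the median over 8970 genes of the other chromosomes with the same mean CPM was -0.26 on that scale, the corrected difference subtracts this median. The 356 members had a median corrected difference of 0.55 on the log2 scale, a ratio of 1.46, with quartiles of 0.25 and 0.87. Of these, 301 (84.6%) had a corrected difference above 0, beside 51.3% of all 9335 genes with that mean CPM. The median was 0.39 (ratio 1.31) on 10p and 0.59 (ratio 1.50) on 10q. For orientation, a ratio of 3 to 2 is 0.58 on this scale. Without the correction the median of the members was 0.29. In bulk libraries, fewer cells of a type and less RNA per cell cannot be told apart.

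The 2 sets did not overlap, with the CD34-high set higher, in 108 members (30.3%), beside 10.2% of all genes, and with the CD34-high set lower in 35 (9.83%), beside 24% of all genes. On 10p, 21 of 91 members were higher and 16 lower without overlap. On 10q, 87 of 265 were higher and 19 lower. These counts use uncorrected CPM and depend on the scaling. With TMM-normalized CPM, 157 members were higher and 24 lower, so that the share of higher members among those without overlap was 86.7% in place of 75.5%. The shares of all genes given above are on uncorrected CPM. None is given here for TMM, so the TMM counts of the members stand without a share to set them against. As chromosome 10 was chosen with results of these libraries known, the shares describe the members and are not a test of them.

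The members varied widely around this median. A corrected difference between 0.3 and 0.9 was found in 173 members (48.6%), against 19.3% of the genes of other chromosomes. It was 1 or more in 68 members (19.1%, against 7.67%) and -1 or less in 21 (5.9%, against 8.12%). In the 82 members whose libraries lay within 0.5 of each other in each set, the median was 0.57, while that of the 1918 such genes elsewhere was 0.016. The 62 members that share over 10% of their exonic bases with another gene, whose reads can be split between them, had a median of 0.46, and the other 294 had 0.58. Genes on the plus and minus strand had medians of 0.51 and 0.56.

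Level and length moved with the size of the difference. In 3 classes of mean CPM of like size, from low to high, the medians of the members were 0.43, 0.55 and 0.58, and those of genes elsewhere in the same ranges were -0.033, -0.022 and 0.069. In 3 such classes of exonic length, from short to long, the members had medians of 0.38, 0.60 and 0.67, and genes elsewhere -0.067, -0.013 and 0.084. The members lay above the other genes in each of these classes, and the part of length and level in the result was not tested. The 9 lncRNAs had a median of 0.43, with *AL157895.1* at -2.48 and *ENTPD1-AS1* at 0.85 as the only ones whose sets did not overlap. Whether the counting used strand is not given in the sources used here, so the reads of antisense genes and of the genes opposite them cannot be told apart.

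The difference between the sets was present in every library. The library score is the median over members of the library's deviation from the median of the 12 libraries, minus the same median over genes of other chromosomes, in log2 units. For 10q it was 0.21, 0.25 and 0.28 (lowest, median and highest) in the CD34-high set and -0.35, -0.27 and -0.23 in the CD34-low set. For 10p it was 0.066, 0.15 and 0.21 in the CD34-high set and -0.30, -0.21 and -0.14 in the CD34-low set. The 2 sets did not overlap on either arm. In all 36 pairs of a CD34-high and a CD34-low library the first had the higher score over all members, by 0.39 to 0.60 with a median of 0.48, while 2 libraries of the same set differed by at most 0.093 in the CD34-high and 0.12 in the CD34-low set. The lowest CD34-low score on both arms was that of replicate 3 labelled Kasumi-1 siMM-mod, which lies with the libraries labelled Kasumi-1 siRE-mod and not with the other 2 of its group. Between 73.3% and 80.6% of the members lay above their 12-library median in a CD34-high library, and between 16.9% and 28.7% in a CD34-low library.

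**Figure D1:**
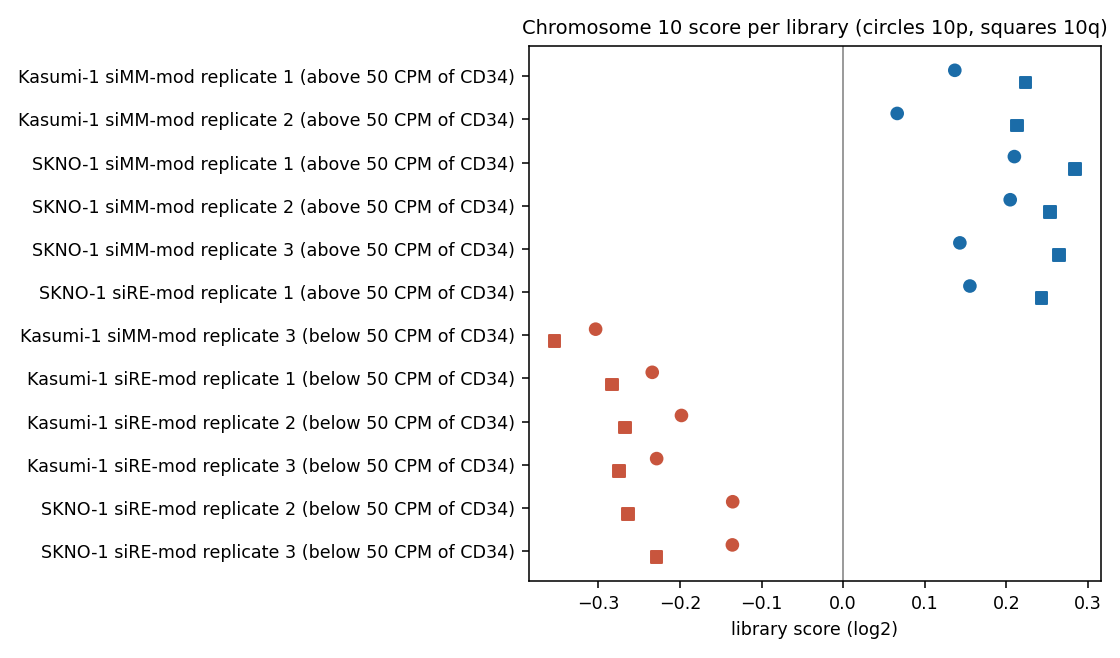
Library score of 10p (circles) and 10q (squares) in log2 units on the x axis, the median deviation of the members minus that of other chromosomes, for each of the 12 libraries on the y axis, in blue for the CD34-high and red for the CD34-low set. The 6 CD34-high libraries lie between 0.066 and 0.28 and the 6 CD34-low libraries between -0.35 and -0.14, and 10q lies further from 0 than 10p in each library.

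The long arm differed more between the sets than the short arm in each library. The 10q score minus the 10p score was 0.049 to 0.15 in the CD34-high set and -0.13 to -0.046 in the CD34-low set. Over whole arms, the median was 0.20 higher on 10q than on 10p. This is a difference between arms and not a change at the centromere. The 20 Mb windows on either side of the arm boundary had medians of 0.64 on 10p and 0.69 on 10q. The last member of 10p was *ZNF37A*, and the first of 10q the pseudogene *ZNF37BP*. The genes next to the centromere and at the ends show how single members lie around these medians. *ZMYND11*, a chromatin reader and the first member of 10p, had 62.2, 68.3 and 73.5 CPM in the CD34-high set and 63.2, 70.8 and 77.9 CPM in the CD34-low set, which overlap, with a corrected difference of 0.21. *ZNF37A*, a zinc finger gene, had a corrected difference of 0.64 with 52.5 to 87.6 against 40.3 to 60.6 CPM. *ZNF37BP* had 31.2 to 73.3 against 13.2 to 24.7 CPM, without overlap, and a corrected difference of 1.50. *MTG1*, a mitochondrial ribosome assembly GTPase and the last member of 10q, had 7.65 to 12.6 against 5.86 to 11.1 CPM and a corrected difference of 0.88, and shares 57.3% of its exonic bases with other genes.

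Along the chromosome, all windows were higher in the CD34-high set, and the window at the tip of 10p was the least so. In windows of 20 Mb from the start of 10p, the median corrected difference was 0.30 in 56 members (*ZMYND11* to *PLXDC2*), 0.64 in 35 (*MLLT10* to *ZNF37A*), 0.69 in 30 (*ZNF37BP* to *CCDC6*), 0.44 in 64 (*RHOBTB1* to *NUTM2B-AS1*), 0.70 in 60 (*ANXA11* to *DNMBP*), 0.57 in 81 (*ERLIN1* to *SEC23IP*) and 0.63 in the last 30 (*WDR11* to *MTG1*). The library scores of the 2 sets did not overlap in any of the 7 windows. They came closest in the first 20 Mb, at -0.0095 to 0.12 in the CD34-high and -0.18 to -0.053 in the CD34-low set. The running median over 15 neighbouring members was above 0 in 96.2% of 342 windows. It was at or below 0 in 13 windows centred from *MINDY3* to *MLLT10* on 10p, reached its lowest value of -0.38 there and its highest of 0.86 at *CUL2*, a ubiquitin ligase scaffold. The longest run of neighbours with a corrected difference above 0 was 27 members, from *RGS10* to *PPP2R2D* on 10q, and 5 other chromosomes held a longer run of 1 sign.

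**Figure D2:**
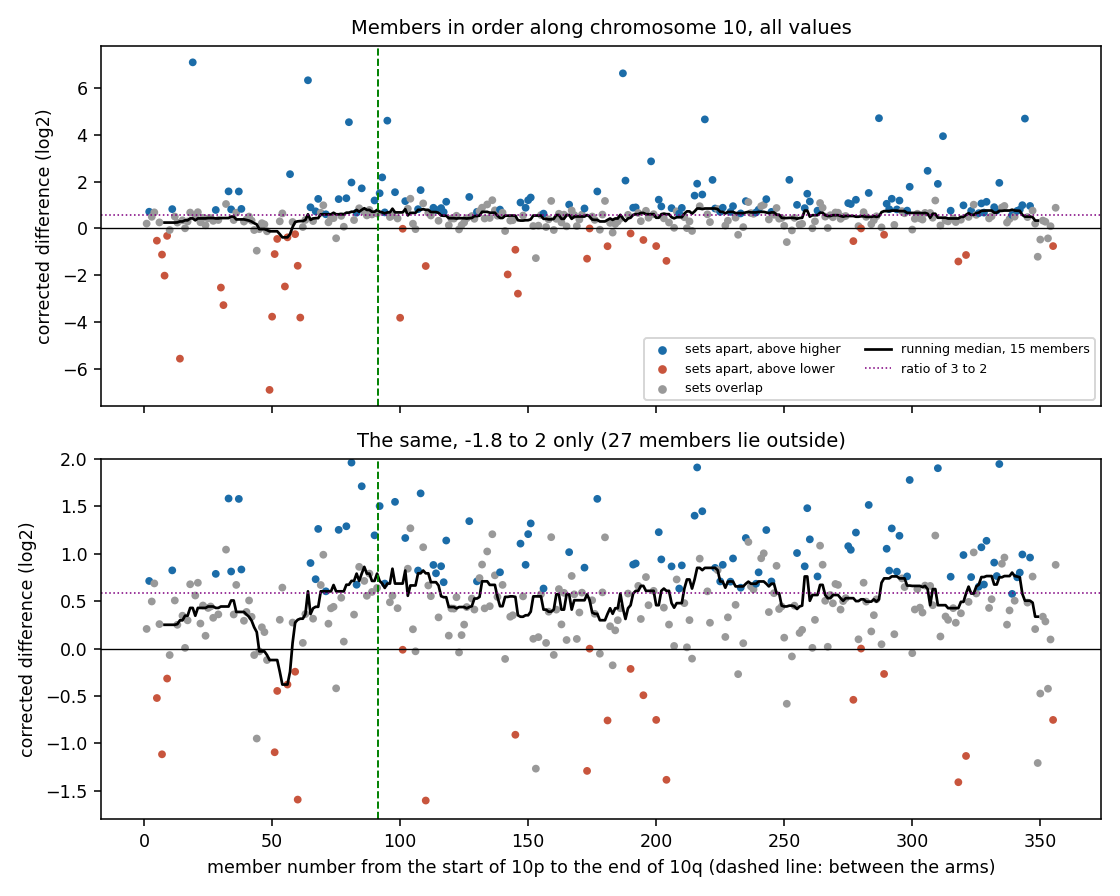
Corrected difference between the CD34-high and CD34-low sets (log2, y axis) of each of the 356 members in order from 10p to 10q (x axis), over the whole range above and from -1.8 to 2 below. Blue and red points are members whose sets do not overlap, the black line is the running median of 15 members, which dips to -0.38 on 10p and otherwise stays mostly between 0.3 and 0.86, and the purple dotted line is a ratio of 3 to 2.

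The largest step lay on 10p and was small beside the level of the whole chromosome. With at least 20 members on each side, the boundary with the largest change of the median lay between *PIP4K2A*, which ends at 22714578, and *MSRB2*, which starts at 23095579 (GRCh38 as in the tables). The 62 members before it had a median corrected difference of 0.28 and the 294 after it 0.60, a step of 0.32. Of the 22 other chromosomes, 17 held a larger step by the same rule (range 0.21 to 1.18, median 0.52, 8 of them over 0.9). In each library the members after the boundary lay further from 0 than those before it, by 0.17 to 0.22 in the CD34-high and by -0.23 to -0.11 in the CD34-low set. The boundary was chosen as the largest, so these values describe it and do not support it.

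The position of the step depended on how it was sought. It moved to *PRKCQ* and *PRKCQ-AS1* with a mean CPM of at least 2, to *USP6NL* and *PROSER2-AS1* with at least 20, and to *KIN* and *ATP5F1C* when means replaced medians over libraries. With at least 10 members on each side it lay between *TASOR2* and *GDI2* and measured 0.49. Within 10p alone, with at least 10 members on each side, the step was 0.46 between *MAP3K8* and *ZNF438*, with 13 members after it. Within 10q it was -0.44 between *MGMT* and *GLRX3*, where the last 10 members had a median of 0.15 against 0.59 before them.

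Members beside the step were a mixed group. *BMI1*, a Polycomb repressive complex 1 component, had 12.9, 16.1 and 19.5 CPM in the CD34-high and 46.9, 60.8 and 73.7 CPM in the CD34-low set, without overlap, and a corrected difference of -1.59. *COMMD3*, its upstream neighbour, had 10.3 to 13.7 against 14.1 to 23.8 CPM and -0.24 (-0.43 to -0.053 when a library was left out), and the 2 genes share 22.8% and 31.1% of their exonic bases with other genes. *SPAG6*, a protein of the ciliary axoneme, lay at -3.80 just before the boundary, and *PIP4K2A*, a phosphoinositide kinase, at 0.061 with 84.4 to 114.7 against 79.1 to 137.7 CPM. Its direction turned when a library was left out (-0.089 to 0.20), with values below 0 without replicate 3 labelled Kasumi-1 siMM-mod, replicate 2 labelled Kasumi-1 siRE-mod or replicate 2 labelled SKNO-1 siRE-mod. After the boundary, *MSRB2*, a mitochondrial methionine sulfoxide reductase, lay at 0.36 with overlap. *ARHGAP21* lay at 6.32. *APBB1IP*, an adaptor of integrin activation, had 253.9 to 299.6 against 126.1 to 200.6 CPM and 0.90. *PDSS1*, a coenzyme Q synthesis enzyme, lay at 0.32 with overlap. The 3 genes before *PIP4K2A* were all lower without overlap.

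Beside the other chromosomes, chromosome 10 had the highest median. The medians of the 22 others ranged from -0.25 to 0.15 on the corrected scale, with a median of -0.0011. Library scores of the 2 sets also did not overlap on 3 other chromosomes with the CD34-high set higher and on 5 with it lower. This rank was among the reasons that chromosome 10 was described, so it carries no further weight. The size of the step ranked 18 of 23.

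Beyond this median, 8 members in each direction lay furthest apart among those whose sets did not overlap, and several were near 0 in 1 set and well expressed in the other. The sets were selected on expression, so such genes were bound to be found, and their values are given as a description. On log2(CPM + 1) the difference of a gene near 0 in 1 set is understated. Such a gene reached the mean CPM limit through the other set alone.

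*SFMBT2*, a chromatin-binding MBT domain protein on 10p (chr10:7158624-7411486), had 92.5, 136.8 and 165.1 CPM in the CD34-high set and 0.121, 0.212 and 0.268 CPM in the CD34-low set, a corrected difference of 7.09. *PRXL2A*, a peroxiredoxin-like protein on 10q (chr10:80407829-80437115), had 76.2, 83.0 and 90.6 CPM against 0, 0.0217 and 0.0516 CPM, a corrected difference of 6.62. The promoters of both are printed above. *ARHGAP21*, a GTPase-activating protein on 10p (chr10:24583609-24723887), had 51.6, 66.0 and 74.3 CPM in the CD34-high set. In the CD34-low set it had 0 counts in 5 libraries and 0.0335 CPM in replicate 2 labelled Kasumi-1 siRE-mod. Over the CD34-low set, there were 4 counts of *ARHGAP21* and 12 of *PRXL2A* in all.

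The other 5 members that were highest in the CD34-high set lay on 10q except *ZEB1*. *NEURL1*, an E3 ubiquitin ligase, had 27.7, 29.8 and 38.6 CPM against 0.258, 0.412 and 0.599 CPM, a corrected difference of 4.71. *PDLIM1*, a cytoskeletal adaptor, had 93.3, 115.5 and 126.8 CPM against 4.20, 4.53 and 5.42 CPM (4.66). *RET*, a receptor tyrosine kinase, had 73.3, 84.6 and 95.1 CPM against 2.28, 3.22 and 4.02 CPM (4.60). *ZEB1*, a zinc finger transcriptional repressor on 10p, had 34.1, 40.3 and 50.6 CPM against 0.473, 1.21 and 2.44 CPM (4.54). That every CD34-high library lay above every CD34-low library in these 4 genes was a condition of their choice. None of the 4 was at 0 in either set.

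*ADAM12*, a disintegrin and metalloprotease, was the member of this group that varied most within a set. It had 75.1, 75.5 and 65.7 CPM in the libraries labelled Kasumi-1 siMM-mod replicate 1 and SKNO-1 siMM-mod replicates 1 and 2. It had 6.30, 7.76 and 6.86 CPM in those labelled Kasumi-1 siMM-mod replicate 2, SKNO-1 siMM-mod replicate 3 and SKNO-1 siRE-mod replicate 1. In the CD34-low set it had 0.0393 to 0.309 CPM. The first 3 of the CD34-high libraries also held more *CD34* (397.7, 394.8 and 355.8 CPM) than the last 3 (130.3, 124.6 and 120.8 CPM), and more *RUNX1T1* (280.6, 308.8 and 253.9 CPM against 79.2, 134.0 and 127.5 CPM). The corrected difference of *ADAM12* was 4.69, and 3.22 to 6.15 when a library was left out.

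Lower in the CD34-high set were *VIM* and *IL2RA* before all. *VIM*, the intermediate filament vimentin (chr10:17228241-17237593), had 0.0134, 0.243 and 0.599 CPM in the CD34-high set and 138.4, 174.8 and 234.6 CPM in the CD34-low set, a corrected difference of -6.89, and shares 24.3% of its exonic bases with another gene. *IL2RA*, the interleukin 2 receptor alpha chain (chr10:6010689-6062370), had 0, 0 and 0.0493 CPM against 44.3, 55.3 and 68.4 CPM (-5.56). Over the CD34-high set, there were 5 counts of *IL2RA* in all and 123 of *VIM*. Their promoters, printed above, differ in the motifs searched although both genes lie on the same side.

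The other 6 members of this group were *ALOX5*, *SPAG6*, *ST8SIA6*, *OPTN*, *TSPAN15* and *CAMK1D*. *ALOX5*, the 5-lipoxygenase of leukotriene synthesis, had 0.234, 0.380 and 0.537 CPM against 15.7, 22.6 and 39.6 CPM (-3.81). *SPAG6* had 0, 0 and 0.0165 CPM against 9.32, 17.3 and 32.0 CPM (-3.80). *ST8SIA6*, a sialyltransferase, had 0 counts in all 6 CD34-high libraries and 10.7, 15.9 and 27.1 CPM in the CD34-low set. Against the 17.4 CPM pooled over the CD34-low set, a floor of 3 counts over the CD34-high set (0.00665 CPM) is 2620-fold lower. *OPTN*, the autophagy receptor optineurin, had 0.809, 1.03 and 1.47 CPM against 15.5, 23.0 and 37.1 CPM (-3.27). *TSPAN15*, a tetraspanin, had 4.27, 4.65 and 5.88 CPM against 37.3, 45.9 and 60.7 CPM (-2.78), and *CAMK1D*, a calmodulin-dependent kinase, 3.94, 4.19 and 5.61 CPM against 30.2, 34.9 and 48.4 CPM (-2.52).

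Grouped by known role, the medians of 7 lists ranged from 0.12 for myeloid and immune function to 0.86 for growth control, and differences between lists were not tested. The lists were written with earlier results of these data known, and their counts are a description. All listed genes are chromosome 10 members, so the counts stand beside the shares of all 356 members. Of these, 30.3% were higher and 9.83% lower without overlap, and 84.6% had a corrected difference above 0. Over all genes, 10.2% were higher and 24% lower without overlap. All 33 members of the list for RNA processing and translation had a corrected difference above 0, with a median of 0.65 and a range from 0.13 (*TRUB1*, a tRNA pseudouridine synthase) to 1.25 (*CUTC*, a copper-binding protein that the list also held), and 10 were higher and 0 lower without overlap. The list also held the DNA repair nucleases *DCLRE1A* and *DCLRE1C*, the co-chaperones *DNAJC1* and *DNAJC12* and *BCCIP*, a cell cycle and DNA repair protein, so it is not a count of RNA genes alone. *CUTC* had 56.3 to 66.0 CPM against 27.4 to 34.4 CPM. *EIF4EBP2*, a repressor of cap-dependent translation, had 165.1 to 197.6 CPM against 78.6 to 102.5 CPM (1.21), and *NPM3*, a nucleolar chaperone, 105.2 to 189.4 CPM against 72.8 to 113.6 CPM (1.09), which overlap. *DHX32*, a helicase-family protein, lay at 0.99 without overlap.

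Of 29 members for cell division and DNA replication, 27 had a corrected difference above 0, with a median of 0.67, and 10 were higher and 1 lower without overlap. *HELLS*, a chromatin remodeller of proliferating cells, had 182.2 to 302.1 CPM against 77.7 to 149.3 CPM (1.45). *MMS19*, which delivers iron-sulfur clusters to DNA repair and replication enzymes, had 151.2 to 186.9 CPM against 66.2 to 109.9 CPM (1.17). *SLK*, a kinase of the cytoskeleton and mitosis, had 171.3 to 228.2 CPM against 94.8 to 121.0 CPM (1.05), and *TYSND1*, a peroxisomal protease that the list also held, lay at 1.11. The 1 member lower without overlap was *STN1*, of the telomere-capping CST complex, at -0.27.

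The 24 members for growth control, cell death and signalling had the highest median of the lists, 0.86, with 21 above 0 and 12 higher and 2 lower without overlap. *PLCE1*, a phospholipase, had 10.9 to 20.1 CPM against 3.46 to 6.88 CPM (1.91), and *PDCD4*, a tumour suppressor that restrains translation, 275.5 to 403.7 CPM against 109.5 to 134.7 CPM (1.78). *KLF6*, a zinc finger transcription factor on 10p, had 31.3, 37.0 and 48.3 CPM against 74.1, 97.6 and 115.4 CPM (-1.11, without overlap). *BNIP3*, a mitophagy receptor, lay at -1.21 with overlap (-1.90 to -0.51 when a library was left out). *FAS* and *GATA3* were not members, with means of 3.89 and 0.177 CPM.

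Of 39 members for transcription and chromatin, 32 had a corrected difference above 0, with a median of 0.50, and 13 were higher and 3 lower without overlap. *SFMBT2* and *ZEB1*, given above, lay furthest out. *MLLT10*, a DOT1L partner known from leukaemic fusions (chr10:21524646-21743630), had 158.7, 201.5 and 227.4 CPM against 40.5, 47.7 and 57.3 CPM (2.32). *TCF7L2*, a Wnt pathway transcription factor, had 38.8 to 52.3 CPM against 6.58 to 16.0 CPM (2.46). *MLLT10* lies at the end of the stretch where the running median was at or below 0, and itself lay above 0. The members lower without overlap were *COMMD3*, *BMI1* and *PCGF5*.

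The 59 members for metabolism and mitochondria had a median of 0.39, with 48 above 0 and 16 higher and 7 lower without overlap. Of those lower on uncorrected CPM, *BORCS7* had a corrected difference of 0.00069. The list also held *DLG5*, *DNAJC9*, *TRDMT1* and *ECD*, so it is not a count of metabolic genes alone. *OAT*, ornithine aminotransferase, had 111.7 to 149.0 CPM against 32.0 to 42.7 CPM (1.95), and *PHYH*, a peroxisomal hydroxylase of phytanic acid breakdown, 18.6 to 27.2 CPM against 7.91 to 9.69 CPM (1.58). *SFXN3*, a mitochondrial serine transporter, lay at 1.48 without overlap, and *HACD1*, of very long chain fatty acid synthesis, at -1.09 without overlap. Of the 40 members for membrane traffic and the cytoskeleton, 35 were above 0, with a median of 0.54, and 14 were higher and 5 lower without overlap, from *VIM* to *ARHGAP21*. Of the 5 lower on uncorrected CPM, *VCL* had a corrected difference of only -9.3e-05.

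Myeloid and immune function stood at 0.12. Of its 20 members, 12 had a corrected difference above 0, and 6 were higher and 7 lower without overlap (35 of 356 members were lower in all). Lower on uncorrected CPM were *IL2RA*, *STAM*, *ALOX5*, *MARCH8*, *SRGN*, *PLAU* and *LIPA*, of which *MARCH8*, a ubiquitin ligase, had a corrected difference of only -0.012, and higher were *ABI1*, *RASSF4*, *TSPAN14*, *ENTPD1*, *HPS1* and *ADAM12*. *SRGN*, the serglycin of myeloid granules, had 41.0, 98.9 and 163.8 CPM in the CD34-high and 173.4, 471.7 and 890.9 CPM in the CD34-low set (-1.96, and -2.83 to -1.10 when a library was left out). The members of this list spread on both sides of 0 and had no common direction.

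The labelled comparisons were fitted across all genes, with edgeR's quasi-likelihood test and Benjamini-Hochberg adjustment, and no member was called in any of them. Between siRE-mod and siMM-mod in the libraries labelled Kasumi-1, 0 of 13608 genes (0%) passed an adjusted p of 0.05, and the smallest adjusted p of a member was 0.252. The members had a median log2 fold change of -0.40, beside 0.020 for all genes. At an unadjusted p under 0.05, 3 of 356 members were higher and 95 lower, beside 5.85% of all genes higher and 12% lower. Of the 6 libraries in this fit, the CD34-high set holds 2, both labelled siMM-mod, and the CD34-low set 4, so the siRNA label and the set cannot be told apart in these values.

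In the libraries labelled SKNO-1, 0 of 13628 genes (0%) passed, and the smallest adjusted p of a member was 0.466. The members had a median log2 fold change of -0.32, beside 0.027 for all genes. At an unadjusted p under 0.05, 15 of 356 members were higher and 35 lower, beside 8.3% of all genes higher and 2.38% lower. More members were thus lower than higher, while more of all genes were higher than lower. Here the CD34-high set holds all 3 libraries labelled siMM-mod and 1 labelled siRE-mod. The siRNA effect did not differ between the line labels for any of 15863 genes by the interaction term (0% called, 5 members and 106 genes at an unadjusted p under 0.05), which does not show that it was alike.

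Single members were far apart between labels without passing the test. In edgeR's quasi-likelihood test, *MLLT10* had a log2 fold change of -1.76 (SE 0.57, adjusted p 0.253) in Kasumi-1 and -1.05 (SE 0.60, adjusted p 0.534) in SKNO-1. *BMI1* had 0.62 (SE 0.60, adjusted p 0.574) and 1.23 (SE 0.52, adjusted p 0.470), and *KLF6* 0.73 (SE 0.40, adjusted p 0.362) and 0.80 (SE 0.25, adjusted p 0.466). *VIM* had 9.58 (SE 2.32, adjusted p 0.466) in SKNO-1, with its 3 siRE-mod libraries split over both *CD34* sets. *MLLT10*, *BMI1* and *KLF6* passed an adjusted p of 0.05 in Kasumi-1 without replicate 3 labelled siMM-mod and in SKNO-1 without replicate 1 labelled siRE-mod. In both cases the siRNA label then coincides with the *CD34* set, which was selected on expression, so these passes are no test of the label.

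Between the line labels, with the siRNA label as an additive term, 0 of 15863 genes (0%) passed and the smallest adjusted p was 0.0646 over all genes and 0.297 over members. The members had a median log2 fold change of 0.19 for SKNO-1 against Kasumi-1, beside 0.027 for all genes, and 269 of 356 lay above the latter. At an unadjusted p under 0.05, 61 of 356 members were higher and 4 lower, beside 6.54% of all genes higher and 6.39% lower. The libraries labelled SKNO-1 hold 4 of the 6 in the CD34-high set, and the 4 labelled comparisons share their libraries with each other and with the sets, so their values for chromosome 10 are not separate from those above. These fits test single genes, and no test of chromosome 10 as a whole was made between labels.

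DESeq2 with the same filter called 48 members in the libraries labelled Kasumi-1, 0 higher and 48 lower, out of 1156 genes, which is 13.5% of members beside 8.5% of genes. In those labelled SKNO-1 it called 9, of which 8 were higher and 1 lower, out of 372 genes, or 2.53% beside 2.73%. The share of members called was above that of all genes in Kasumi-1 and below it in SKNO-1. The difference between the lines in these shares was not tested. In both lines the siRNA label is mixed with the *CD34* sets, which were selected on expression. These shares are therefore not read as a result about the members or the siRNA. Calls that edgeR gave when replicate 3 labelled Kasumi-1 siMM-mod or replicate 1 labelled SKNO-1 siRE-mod was left out compare the sets selected on expression and are not read as a test of the members.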

How the data were processed

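The authors trimmed reads with Trim Galore 0.6.5, aligned them to GRCh38 with STAR 2.7.10a and deposited raw read counts per gene over exons. The methods name Subread (1.6.5) and the file headers Rsubread 1.32.4 under R 3.5.1. Neither the strand setting nor the handling of reads that fall on several genes is given in the sources used here. Deposited CPM and FPKM columns and 4 in vivo libraries were not used.

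CPM were computed from the counts and the library total, and differences on log2(CPM + 1). Members, sets and lists were chosen with earlier results of these data known. The arms were parted at 40 Mb, where no member lies. GENCODE 44 gave biotypes for 355 of 356 members. Correction by the median of the other chromosomes, the 20 Mb windows, the classes by size, level and length, and the alternatives by overlap, biotype and spread within sets were chosen after seeing the data.

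Labelled groups were compared with edgeR 4.0.16 (TMM, quasi-likelihood test, at least 600 reads in a fit, R 4.3.3), with DESeq2 1.42.0, its size factors, no filter, a replicate block and each library left out as alternatives. With 3 against 3 libraries an exact permutation test cannot go below a p of 0.1. On counts simulated for each of the 4 fits, over 13508, 13495, 15776 and 15782 genes, 200 of 200 changed genes were recovered, with 8, 12, 14 and 11 false calls. The simulation gave all libraries of a fit a common mean per gene and a fixed spread, apart from the changed genes. The real labelled groups mix the *CD34* sets and vary more. The recovery therefore checks the procedure and does not show the power of the real fits.

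Genes were named by rule: up to 8 members in each direction with the largest difference without overlap, 4 on each side of the step, the ends of the arms, up to 4 for each role list, *CD34* and *RUNX1T1*, and *BMI1*, *MLLT10*, *KLF6*, *FAS* and *GATA3*. Some genes that the rule names are not reported here. All others were named after their values were seen. Python 3.11.15, numpy 2.4.6, pandas 2.3.3 and matplotlib 3.10.9 were used.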

Additional observations from a re-analysis of the deposited data

Results flagged for a closer look

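In 98 groups of 6 libraries tested with Dixon's ratio, 5 held a library further from the rest than the 95% critical value for groups of 6, which chance alone gives in about 1 group in 20. All values are log2(CPM + 1).

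*ARHGAP21* had 5.72 in replicate 2 labelled Kasumi-1 siMM-mod, below the other 5 CD34-high libraries (6.06 to 6.23). In the CD34-low set it had 0.0476 in replicate 2 labelled Kasumi-1 siRE-mod and 0 in the others, a difference of a few counts. *IL2RA* had 0.0694 in replicate 2 labelled SKNO-1 siMM-mod, against at most 0.022 in the other CD34-high libraries, also a few counts. *MMS19* had 7.55 in replicate 1 labelled Kasumi-1 siMM-mod, above 7.25 to 7.34 in the rest of the CD34-high set. *ZNF37A* had 5.37 in replicate 3 labelled Kasumi-1 siMM-mod, below 5.74 to 5.94 in the rest of the CD34-low set.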

How the results depend on the processing

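The median corrected difference of the members kept its sign under all alternatives run and stayed between 0.53 and 0.57 when each library was left out in turn, between 0.57 and 0.61 on 10q and between 0.37 and 0.48 on 10p. Members higher without overlap numbered 108 to 138 and lower 35 to 38 when a library was left out. With DESeq2's size factors they were 166 and 22, with a mean CPM of at least 20 the lower ones were 22, and in the members within 0.5 in both sets they were 36 and 9. The step of 0.32 was 0.30 to 0.39 when a library was left out, 0.36 with size factors and 0.49 with at least 10 members on each side.

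By DESeq2, the siRNA comparison gave 1156 genes (48 members, 13.5% beside 8.5% of genes) in Kasumi-1 and 372 (9, 2.53% beside 2.73%) in SKNO-1, the interaction 127 (1, 0.281% beside 0.801%) and the line label 272 (0, 0% beside 1.71%), where edgeR's quasi-likelihood test called 0 in each and 2435, 1455, 106 and 2050 genes at an unadjusted p under 0.05. When a library was left out, edgeR called 0 to 4250 genes (0 to 190 members) in Kasumi-1, 0 to 2535 (0 to 99) in SKNO-1, 0 for the difference, and 0 to 70 for the line label, the last without SKNO-1 siRE-mod replicate 3, and 0 members in either. The highest counts came without Kasumi-1 siMM-mod replicate 3 and SKNO-1 siRE-mod replicate 1, where the siRNA label coincides with the sets selected on expression, so they are no test of the label. The other causes were not tested. With the replicate number as a replicate block, 0 genes were called in all 4 fits. Libraries with the same number did not deviate together from the means of their labelled groups (correlations -0.27 to -0.0046). Those groups mix the *CD34* sets, so these correlations cannot show whether libraries of the same number shared a culture or batch. No paired analysis was possible for the sets because they were not formed by label.

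Genes near 0 rest on few counts, so their differences are the least exact, and copy number cannot be told from expression here.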

Other observations

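These members were named after their values were seen, and the values are a description. Members of 1 protein family lay on opposite sides. Besides *BMI1*, the Polycomb group RING finger genes *PCGF5* and *PCGF6* lie on 10q. *PCGF5* had 17.2 to 21.8 CPM in the CD34-high and 56.8 to 66.4 CPM in the CD34-low set, a corrected difference of -1.38 without overlap. *PCGF6* had 34.1 to 44.8 against 12.1 to 22.1 CPM, a corrected difference of 1.52 without overlap.

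The zinc finger genes on both sides of the centromere all lay above 0. *ZNF33A* had 62.7 to 113.4 against 29.0 to 43.9 CPM (1.20) and *ZNF33B* 42.7 to 62.4 against 10.3 to 18.0 CPM (2.18), both without overlap, and *ZNF248* and *ZNF25* lay at 0.79 and 0.60 with overlap. These genes have close relatives, and how the counting treated reads that match several of them is not given in the sources used here. Among the sideroflexins, which are mitochondrial carriers, *SFXN2* lay at 1.22 without overlap and *SFXN4* at 0.37 with overlap (90.8 to 123.2 against 88.7 to 107.7 CPM). *ENTPD1*, the ectonucleotidase CD39, had 26.7 to 80.6 against 6.22 to 15.7 CPM (2.07) and shares 41.0% of its exonic bases with other genes. *PLAU*, the urokinase gene, had 15.6 to 16.8 against 40.5 to 63.6 CPM (-1.29) and shares 31.1%.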
